A study of Bos taurus with 18 samples.

Results

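The genes described here make cholesterol or keep its level in the cell: 34 genes out of 27270 in the deposited count table. They were chosen by name from textbook roles, with earlier results of these data known. All 34 were found by their symbol, and all 34 passed the filter on low counts that left 22202 genes to test. The samples were rumen papillae, the leaf-like folds that line the first stomach of cattle, taken as biopsies from 9 Holstein cows that had a rumen cannula and were not in milk. Every cow was sampled first on forage alone (100% of the diet) and again after a move to a high-grain diet (65% concentrate). Of the cows, 5 were controls and 4 received a supplement that the labels call only PHY, which gives 4 groups: on forage forage_control (n = 5) and forage_PHY (n = 4), on grain grain_control (n = 5) and grain_PHY (n = 4). The labels do not say whether PHY was already fed on forage, and they tie no library to a cow, so libraries of the same cow were treated as independent and replicate numbers are names only. A biopsy holds several cell types, so fewer cells of a type and less RNA per cell cannot be told apart.

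Animal cells build cholesterol from acetyl-CoA. The mevalonate pathway makes isoprenoid units, which are joined to squalene, closed into the first sterol and trimmed in a series of ring and side-chain steps. SREBP2, the product of SREBF2, is the transcription factor that turns these enzymes on: when membrane cholesterol is low, SCAP carries it from the endoplasmic reticulum to the Golgi, where the proteases encoded by MBTPS1 and MBTPS2 release its active part, and when sterols are plentiful, INSIG proteins hold SCAP back. The liver X receptors LXRα and LXRβ (NR1H3 and NR1H2) sense oxidised sterols and switch on exporters such as ABCA1 and ABCG1. In the rumen the papillae carry a stratified squamous epithelium, a tissue type in which cholesterol is a building block of the barrier lipids.

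The libraries differed in depth with diet. Totals ran from 15808999 to 33935756 reads in forage_control, 18655841 to 34471682 in forage_PHY, 5433497 to 23949058 in grain_control and 3953060 to 15474334 in grain_PHY. Reads on 144 olfactory receptor genes, which are silent in most tissues, summed to 16.3 to 65.0 CPM (counts scaled to library size, here to total reads) on forage over both arms and to 32.9 to 345.3 CPM on grain. The 3 shallowest libraries (grain_PHY 1, grain_control 4 and grain_control 1) were also the 3 highest in this measure. Their TMM scaling factors were the highest too, at 2.346, 1.374 and 1.527, against 0.7091 to 1.076 in the other libraries. A higher factor lowers the CPM of each sterol gene in that library, so the low ranks of these libraries given below depend on this scaling. The summed level of the epithelial markers was 13430 to 33390 CPM on forage and 6530 to 25030 CPM on grain. Of 14 listed genes 13 were in the table and none was at 0, but their levels differed widely. In forage_control the median was 3876 CPM for KRT5, 0.905 CPM for KRT1 and 0.614 CPM for KRT4. The medians of KRT1, KRT4 and DSG1 were higher on grain in both arms and that of KRT10 in control cows only. All other listed genes in the table had lower medians on grain.

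Across both arms, 11 of the 34 sterol genes (32.35%) fell on grain and 1 (2.941%) rose, at an adjusted p under 0.05 in edgeR's quasi-likelihood test. The genes that fell were PMVK, MVD, IDI1, FDFT1, NSDHL, DHCR7, SREBF2, SCAP, MBTPS1, TMEM97 and NR1H2, and the gene that rose was the exporter ABCG1. Of all genes tested, 13.8% were called lower and 18.1% higher. Among the 11492 genes whose average level lay within the range of the sterol genes (1.79 to 7.23 log2 CPM), a comparison added after the data were seen, 24.9% were called lower and 7.94% higher. The median log2 fold change was -0.40 for the sterol genes, -0.29 for genes of that level range and 0.20 for all genes. A negative value was found for 28 of the 34, and 47.06% of the 34 reached an unadjusted p under 0.05 against 50.29% of all genes. All 12 calls were lost when the single shallowest library, grain_PHY 1, was left out (smallest adjusted p of a sterol gene by edgeR 0.0629), and none remained without the 3 shallowest libraries, where the median was -0.25 and 28 of 34 values were still negative. With the olfactory receptor measure as a covariate no sterol gene was called, the median was 0.01 and 16 of 34 values were negative. These losses were those of the whole table: of all genes, 7091 were called with all libraries, 1 of 22479 without grain_PHY 1, 0 of 21399 without the 3 shallowest and 0 of 22202 with the covariate. An unadjusted edgeR p under 0.05 was found for 4136 genes without the 3 shallowest and for 1032 with the covariate.

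**Figure D1:**
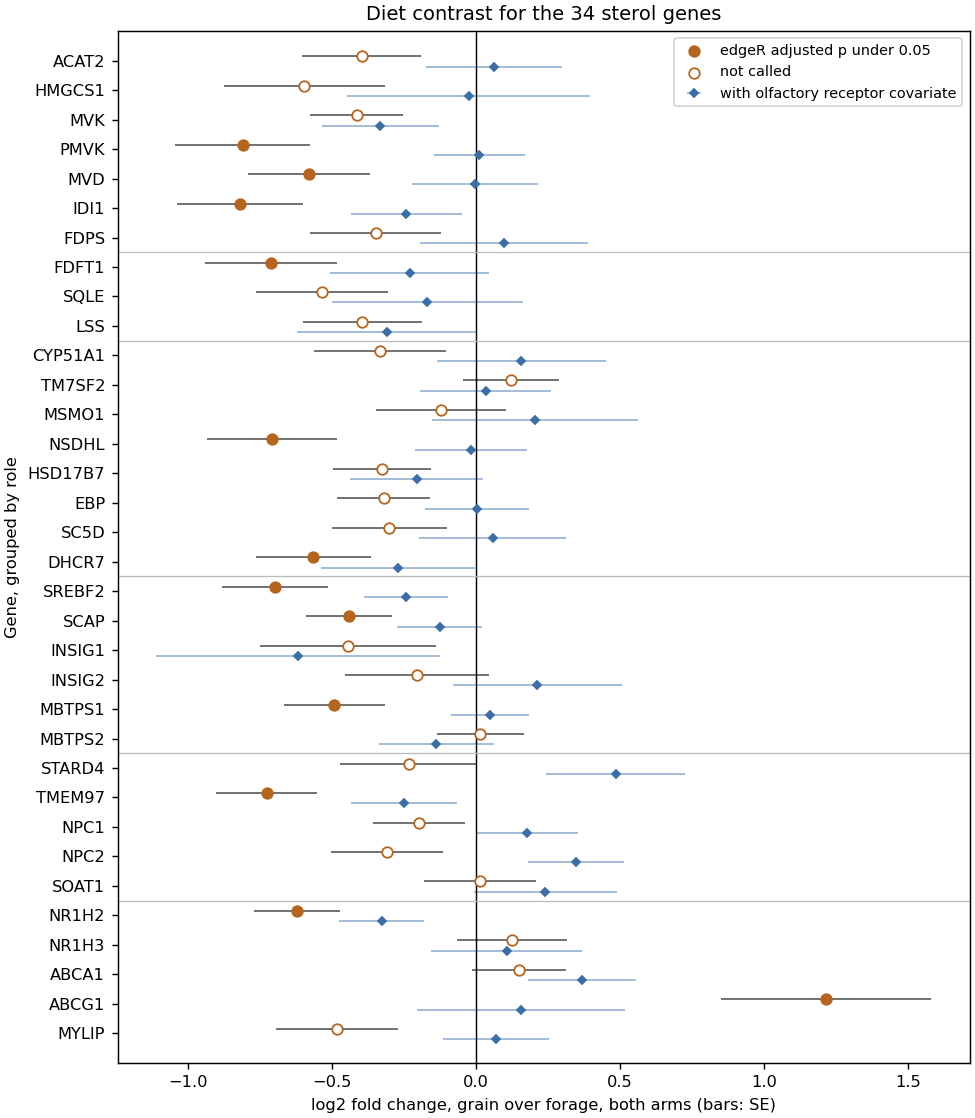
Log2 fold change of grain over forage averaged over both arms (x axis) for each of the 34 sterol genes (y axis, ordered by role), with SE as bars, from edgeR on 18 libraries; filled circles passed the adjusted p threshold and blue diamonds are the same contrast with the olfactory receptor measure as a covariate. The 11 filled circles left of 0 run from -0.82 (IDI1) to -0.44 (SCAP), ABCG1 alone is filled on the right at 1.22, and the diamonds gather around a median of 0.01.

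In the mevalonate pathway 3 of 7 genes fell on grain and all 7 had negative values (median -0.58). The shares to set beside this and each role below are 13.8% lower and 18.1% higher of all genes tested. Of genes within the level range of the sterol genes they are 24.9% and 7.94%, with a median of -0.29. IDI1, the isomerase that supplies the reactive isoprenoid unit, and PMVK, a kinase of the pathway, had the smallest p of the list. IDI1 stood at 101, 91.02, 69.9, 134 and 133 CPM in forage_control and 124, 89.4, 122 and 113 CPM in forage_PHY, against 27.4, 92.7, 57.03, 69.4 and 82.7 CPM in grain_control and 32.6, 44.2, 80.1 and 73.1 CPM in grain_PHY. The highest grain library overlapped the lower forage libraries, and the lowest values were in grain_control 1 and grain_PHY 1. IDI1 was 1.77-fold lower on grain, at -0.82 ± 0.22 (log2 fold change ± SE; edgeR adjusted p = 0.0216). PMVK stood at 56.2, 45.1, 33.5, 76.99 and 79.2 CPM in forage_control and 75.2, 61.9, 61.5 and 56.8 CPM in forage_PHY, against 16.4, 47.6, 38.1, 29.4 and 56.7 CPM in grain_control and 12.4, 40.1, 39.1 and 36.2 CPM in grain_PHY. Here too the 2 lowest libraries were grain_PHY 1 and grain_control 1, while forage_control 3 lay below several grain libraries. PMVK was 1.75-fold lower on grain, at -0.81 ± 0.24 (edgeR adjusted p = 0.0229), and stood at 0.01 with the olfactory receptor covariate. MVD, the decarboxylase that follows PMVK, fell by 0.58 on the log2 scale with an SE of 0.21 (edgeR adjusted p = 0.0413).

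HMGCS1, the synthase that makes HMG-CoA and a classic SREBP2 target, did not pass the test. HMGCS1 stood at 157, 27.01, 50.5, 59.98 and 95.5 CPM in forage_control and 125, 66.97, 97.5 and 78.3 CPM in forage_PHY, against 20.7, 90.1, 55.03, 68.4 and 88.1 CPM in grain_control and 45.1, 36.4, 53.1 and 59.2 CPM in grain_PHY. Forage_control alone spanned from the second lowest to the highest of the 18 values, so the groups overlapped widely. Its log2 fold change was -0.60 ± 0.28 (edgeR adjusted p = 0.0891). MVK, the first kinase of the pathway, stood at -0.42 ± 0.16 (edgeR adjusted p = 0.0516), ACAT2, which makes acetoacetyl-CoA, at -0.40 ± 0.21, and FDPS, which makes farnesyl diphosphate, at -0.35 ± 0.23, all without a call.

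Of the 3 genes that join and close squalene, FDFT1 fell and the other two kept negative values without a call. FDFT1 encodes squalene synthase, the first step committed to sterols. FDFT1 stood at 105, 47.9, 40.4, 54.3 and 70.8 CPM in forage_control and 94.1, 48.3, 75.7 and 57.3 CPM in forage_PHY, against 18.9, 66.4, 38.8, 47.5 and 55.5 CPM in grain_control and 25.6, 26.3, 46.8 and 44.4 CPM in grain_PHY. The lowest 3 libraries were all on grain, yet several forage libraries lay within the grain range. FDFT1 was 1.64-fold lower, at -0.71 ± 0.23 (edgeR adjusted p = 0.0287). SQLE encodes squalene epoxidase, a slow and regulated step. SQLE stood at 89.3, 27.4, 42.4, 43.3 and 58.6 CPM in forage_control and 82.5, 48.7, 64.1 and 39.6 CPM in forage_PHY, against 18.9, 63.1, 42.9, 46.2 and 63.9 CPM in grain_control and 33.8, 22.8, 36.3 and 30.8 CPM in grain_PHY. The grain_PHY libraries all lay below the forage_PHY ones, whereas the control groups overlapped. SQLE stood at -0.54 ± 0.23 (edgeR adjusted p = 0.0684) and LSS, which forms lanosterol, at -0.40 ± 0.21 (edgeR adjusted p = 0.121).

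Of the 8 genes that convert lanosterol to cholesterol, 2 fell on grain and 7 had negative values (median -0.32). NSDHL removes the carboxyl group left by demethylation at the sterol ring. NSDHL stood at 71.2, 32.3, 38.7, 56.4 and 72.8 CPM in forage_control and 71.7, 46.5, 59.8 and 47.02 CPM in forage_PHY, against 18.01, 56.7, 29.9, 35.1 and 56.7 CPM in grain_control and 16.3, 24.6, 39.5 and 35.6 CPM in grain_PHY. Grain_PHY 1 and grain_control 1 were again the lowest, and 2 grain_control libraries stood as high as the middle of the forage groups. NSDHL was 1.63-fold lower, at -0.71 ± 0.23 (edgeR adjusted p = 0.0282). DHCR7 carries out a last reduction that yields cholesterol. DHCR7 stood at 39.3, 13.3, 14.6, 18.5 and 29.3 CPM in forage_control and 35.2, 19.4, 24.3 and 23.04 CPM in forage_PHY, against 12.6, 20.6, 17.8, 20.97 and 23.5 CPM in grain_control and 14.95, 9.28, 16.9 and 14.6 CPM in grain_PHY. Forage_control 1 and forage_PHY 1 were the highest and grain_PHY 2 the lowest, while forage_control 2 and 3 lay at the grain level. DHCR7 was 1.48-fold lower, at -0.57 ± 0.20 (edgeR adjusted p = 0.0380). The remaining 6 genes were not called: CYP51A1, the lanosterol demethylase, stood at -0.33 ± 0.23, MSMO1, the next oxidase, at -0.12 ± 0.23, HSD17B7 at -0.33 ± 0.17, the isomerase EBP at -0.32 ± 0.16, the desaturase SC5D at -0.30 ± 0.20, and the reductase TM7SF2 at 0.12 ± 0.17. Over the 18 enzymes of synthesis, 6 fell and 17 had a negative value. Among genes within the level range of the sterol genes, 24.9% were called lower and the median was -0.29.

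In the machinery that controls SREBP2, 3 of 6 genes fell: SREBF2, SCAP and MBTPS1. SREBF2 stood at 165, 135, 103, 164 and 186 CPM in forage_control and 184, 161, 179 and 159 CPM in forage_PHY, against 63.8, 120.1, 97.7, 98.5 and 137 CPM in grain_control and 62.8, 78.8, 115 and 119.8 CPM in grain_PHY. Only forage_control 3 and forage_control 2 reached down into the grain range, and the 2 lowest libraries were grain_PHY 1 and grain_control 1. SREBF2 was 1.62-fold lower on grain, at -0.70 ± 0.19 (edgeR adjusted p = 0.0216). SCAP stood at 38.5, 26, 30.7, 37.5 and 42.1 CPM in forage_control and 39.6, 33.5, 33.5 and 34.4 CPM in forage_PHY, against 25.3, 24.1, 28.03, 17.2 and 32.9 CPM in grain_control and 23.1, 20.5, 29.03 and 32.2 CPM in grain_PHY. The lowest library was grain_control 4, and only forage_control 2 and 3 lay below the highest grain library. SCAP was 1.36-fold lower, at -0.44 ± 0.15 (edgeR adjusted p = 0.0336). MBTPS1, the protease that makes the first cut in SREBP2, fell by 0.49 on the log2 scale with an SE of 0.18 (edgeR adjusted p = 0.0393), and stood at 0.05 with the olfactory receptor covariate.

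INSIG1, which retains SCAP and is itself an SREBP2 target, varied widely within the groups. INSIG1 stood at 16.8, 6.22, 4.13, 6.79 and 3.88 CPM in forage_control and 12.8, 4.74, 5.92 and 9.21 CPM in forage_PHY, against 3.26, 8.56, 7.39, 5.35 and 6.59 CPM in grain_control and 10.2, 2.60, 5.65 and 2.75 CPM in grain_PHY. Forage_control 1 and forage_PHY 1 were the highest and grain_PHY 1 came next, against 2.60 CPM in grain_PHY 2. Its log2 fold change was -0.44 ± 0.31 (edgeR adjusted p = 0.229). INSIG2 stood at -0.21 ± 0.25 and the protease MBTPS2 at 0.01 ± 0.15, neither called.

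Of the 5 genes of sterol transport and storage, only TMEM97 was called. TMEM97, the sigma-2 receptor, binds the lysosomal transporter NPC1 and is regulated by sterols. TMEM97 stood at 24.9, 12.01, 14.1, 18.9 and 23.4 CPM in forage_control and 26.7, 20.2, 24.1 and 16.6 CPM in forage_PHY, against 10.6, 17.4, 15.2, 14.4 and 21.1 CPM in grain_control and 6.17, 9.46, 12.5 and 9.44 CPM in grain_PHY. All 4 grain_PHY libraries lay below the 4 forage_PHY libraries, and grain_PHY 1 was the lowest of all 18. TMEM97 was 1.66-fold lower on grain over both arms, at -0.73 ± 0.18 (edgeR adjusted p = 0.0202). NPC2 hands cholesterol to NPC1 in the lysosome and had the next smallest p. NPC2 stood at 15.2, 11.8, 11.4, 18.9 and 18.96 CPM in forage_control and 18.8, 17.5, 15.6 and 12.3 CPM in forage_PHY, against 7.62, 18.3, 14.1, 10.9 and 21.1 CPM in grain_control and 5.63, 14.01, 12.5 and 11.9 CPM in grain_PHY. The groups overlapped, with grain_PHY 1, grain_control 1 and grain_control 4 below each forage library and grain_control 5 above each of them. NPC2 stood at -0.31 ± 0.19 (edgeR adjusted p = 0.190), NPC1 at -0.20 ± 0.16, the sterol carrier STARD4 at -0.23 ± 0.24 and SOAT1, which esterifies cholesterol for storage, at 0.01 ± 0.19.

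Among the 5 genes of the LXR branch, 1 fell and 1 rose. NR1H2, which encodes LXRβ, had the smallest p of all 34 genes. NR1H2 stood at 26.1, 28.3, 32.2, 35.2 and 40.1 CPM in forage_control and 33.1, 35.2, 36.7 and 39.1 CPM in forage_PHY, against 18.1, 20.4, 25.5, 19.8 and 25.8 CPM in grain_control and 17.2, 16.1, 27.7 and 28.6 CPM in grain_PHY. In control cows each grain library lay below each forage library, and in PHY cows likewise, while grain_PHY 3 and 4 reached above the lowest forage_control library. NR1H2 was 1.54-fold lower, at -0.62 ± 0.15 (edgeR adjusted p = 0.0202). NR1H3, which encodes LXRα, did not follow it. NR1H3 stood at 4.90, 3.41, 6.07, 5.07 and 6.11 CPM in forage_control and 5.01, 5.80, 4.10 and 6.80 CPM in forage_PHY, against 6.77, 4.73, 4.99, 5.79 and 6.82 CPM in grain_control and 5.96, 6.59, 6.61 and 3.54 CPM in grain_PHY. These ranges coincided, and the gene stood at 0.13 ± 0.19 (edgeR adjusted p = 0.590).

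ABCG1, which passes cholesterol to lipoproteins outside the cell, was the 1 sterol gene that rose. ABCG1 stood at 0.981, 2.87, 2.87, 1.55 and 1.13 CPM in forage_control and 2.03, 1.28, 1.55 and 4.02 CPM in forage_PHY, against 11.7, 3.46, 3.73, 3.74 and 2.10 CPM in grain_control and 8.45, 2.69, 3.55 and 3.64 CPM in grain_PHY. The 2 highest values came from grain_control 1 and grain_PHY 1, which held 97 and 78 reads of the gene, and without them the grain libraries (2.10 to 3.74 CPM) overlapped the forage libraries (0.981 to 4.02 CPM). Counts of ABCG1 ran from 13 to 97 reads per library. ABCG1 was 2.32-fold higher on grain, at 1.22 ± 0.36 (edgeR adjusted p = 0.0246); the value without the 3 shallowest libraries was 0.69 (edgeR adjusted p = 0.282). ABCA1, which loads cholesterol onto apolipoprotein A-I, was not called. ABCA1 stood at 22.6, 19.7, 18.8, 37.4 and 18.8 CPM in forage_control and 24.1, 20.4, 19.99 and 19.6 CPM in forage_PHY, against 23.1, 23.1, 28.7, 18.8 and 15.7 CPM in grain_control and 23.7, 25.98, 24.1 and 37.5 CPM in grain_PHY. The groups overlapped, with 1 high library in forage_control and 1 in grain_PHY, at 0.15 ± 0.16 (edgeR adjusted p = 0.446). MYLIP, a ubiquitin ligase that LXR induces and that marks lipoprotein receptors for breakdown, stood at -0.48 ± 0.21 (edgeR adjusted p = 0.0729).

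**Figure D2:**
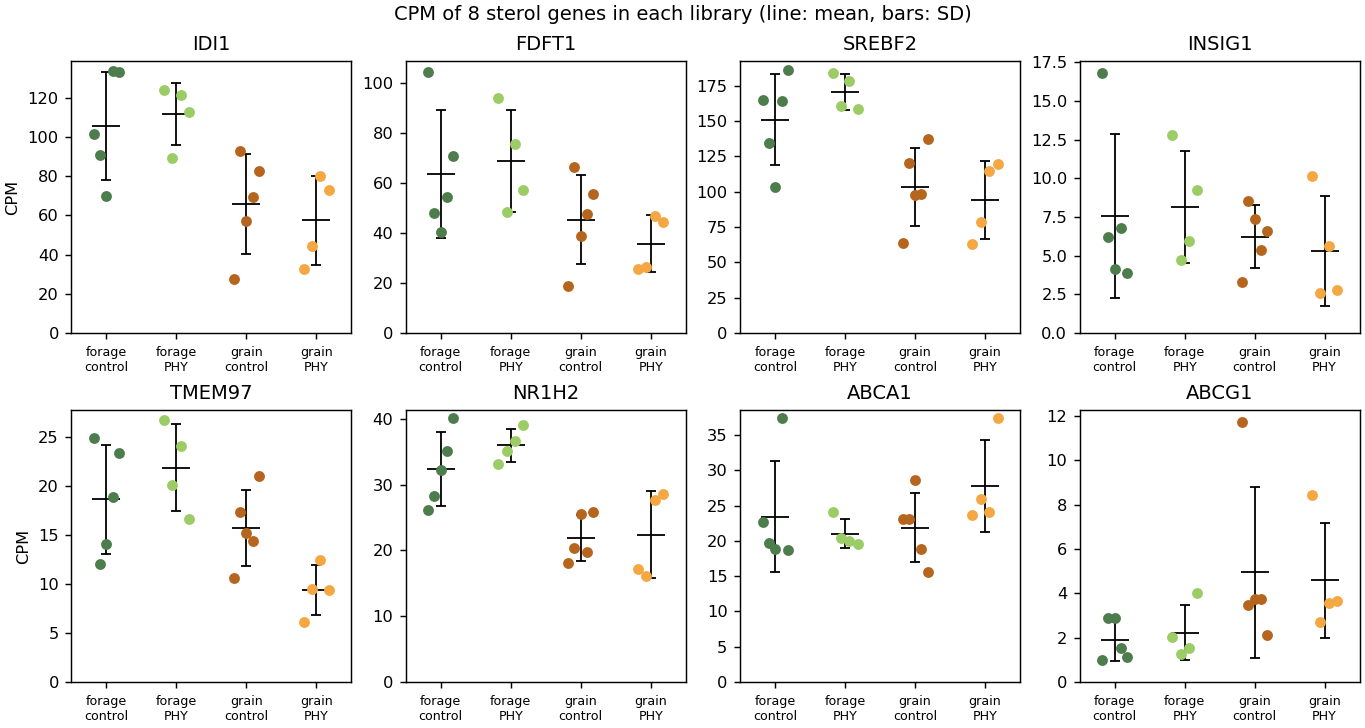
CPM of 8 sterol genes in each of the 18 libraries (points), by group, with the group mean (line) and SD (bars), each axis starting at 0. IDI1, FDFT1, SREBF2, TMEM97 and NR1H2 have lower means in the grain groups with overlapping points, and the ABCG1 means on grain rest on 11.7 and 8.45 CPM in grain_control 1 and grain_PHY 1.

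Set against the leave-out of single libraries, IDI1, SREBF2, TMEM97 and NR1H2 lost their call in 1 of 18 cases, that of grain_PHY 1, and their values there were -0.68, -0.59, -0.61 and -0.53. PMVK lost it in 2 cases, NSDHL in 3, FDFT1 and ABCG1 in 4, and DHCR7, SCAP, MVD and MBTPS1 in 10 to 12. Leaving out forage_PHY 1 lost 8 of the 12 calls, forage_control 1 lost 6 and grain_control 1 lost 5. All 12 kept their sign in each of these fits.

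**Figure D3:**
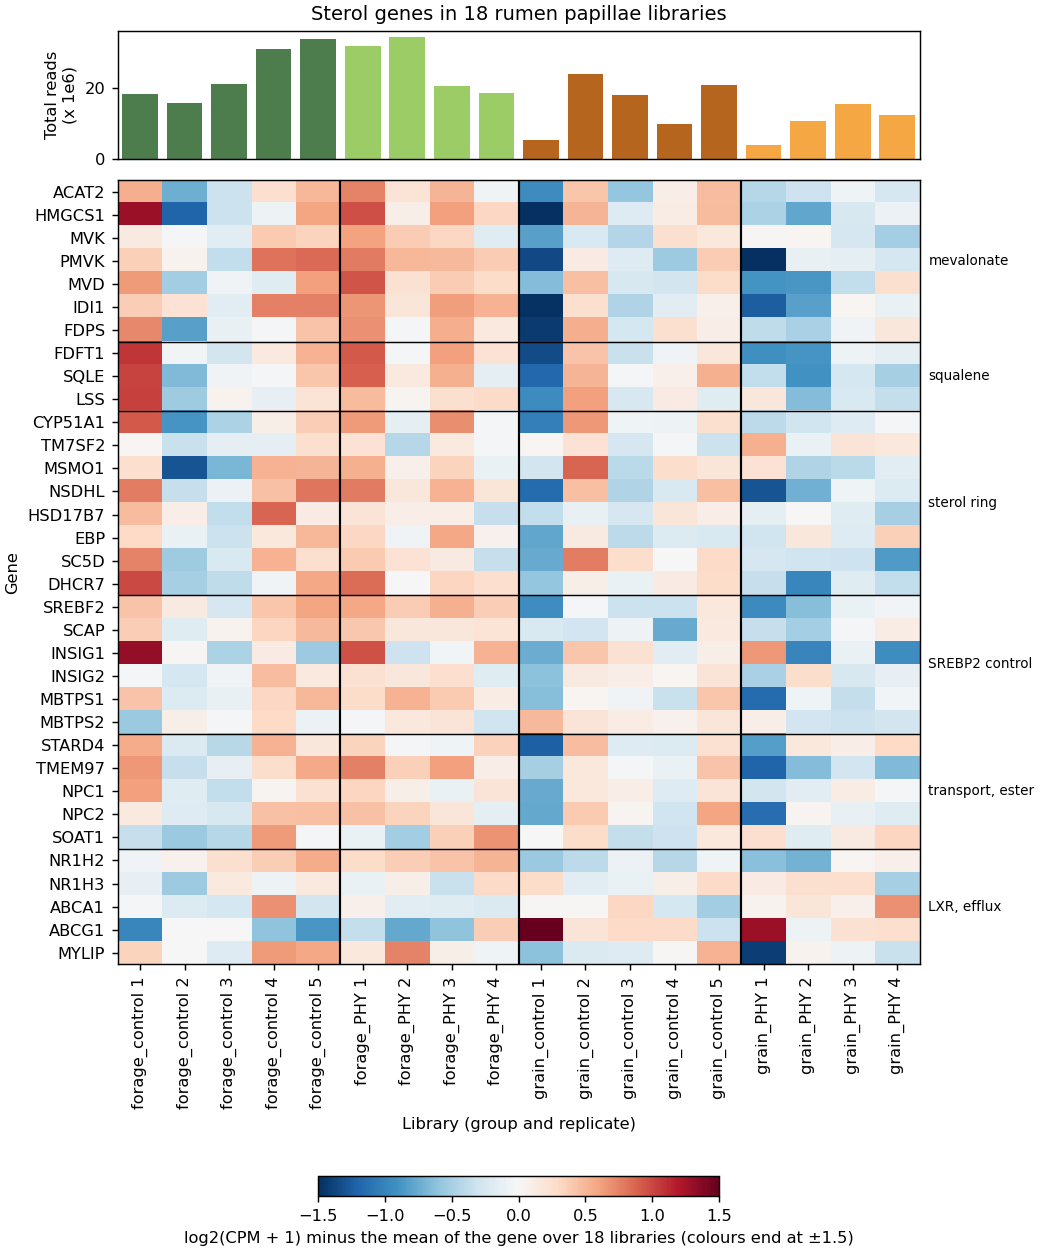
Colours give log2(CPM + 1) of each sterol gene (rows, ordered by role) in each of the 18 libraries (columns) minus the mean of that gene, with colours ending at ±1.5; bars above give total reads. Grain_control 1, with 5433497 reads, is the bluest column among the synthesis genes, forage_control 1 and forage_PHY 1 are the reddest, and ABCG1 runs the opposite way in grain_control 1 and grain_PHY 1.

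Within the arms no gene passed the test, among all 22202 genes (0% called) as among the 34. In control cows, grain against forage, 5 sterol genes had an unadjusted p under 0.05 (14.71%, against 11.34% of all genes), with a median log2 fold change of -0.25. The smallest p belonged to NR1H2 (-0.56 ± 0.20), ABCG1 (1.38 ± 0.49) and IDI1 (-0.68 ± 0.29), each with an edgeR adjusted p of 0.432. The median in control cows was -0.23 without grain_PHY 1 (28 of 34 negative) and -0.02 without the 3 shallowest libraries (17 of 34). After thinning each library to the lowest total it was -0.02 (18 of 34), and with the olfactory receptor covariate 0.09 (13 of 34). In PHY cows, 13 had an unadjusted p under 0.05 (38.24%, against 39.73% of all genes). Their median was -0.56 over the 34, against 0.21 for all genes, which were not matched for level. TMEM97 (-1.22 ± 0.27), SREBF2 (-0.86 ± 0.28) and NR1H2 (-0.68 ± 0.22) led there, each with an edgeR adjusted p of 0.0696. The PHY cows had the sharpest split in depth and background: totals of forage_PHY and grain_PHY did not overlap, nor did their olfactory receptor levels (20.8 to 32.2 against 42.1 to 345.3 CPM). The median in PHY cows was -0.50 without grain_PHY 1 (29 of 34 negative), -0.45 without the 3 shallowest libraries (28 of 34), -0.33 after thinning each library to the lowest total (25 of 34) and -0.08 with the olfactory receptor covariate (21 of 34), and no sterol gene was called by edgeR in any of these fits.

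The tools differed on the PHY arm. DESeq2 called 5384 genes there and limma voom with quality weights 7895. Among the sterol genes DESeq2 called 7 lower, limma voom 13 lower and 1 higher, and edgeR on the PHY libraries alone 10 lower and 1 higher, with ABCA1 the gene that rose in the last of these (0.56 ± 0.18, adjusted p = 0.0387). Of all genes, 4.9% were called lower and 15.1% higher by DESeq2, 15.4% and 20.2% by limma voom, and 6.18% and 17.9% by edgeR on the PHY libraries alone. In control cows none of these tools called any of the 34. Grain and forage libraries did not overlap for 13 sterol genes in PHY cows (38.2%), all lower on grain: ACAT2, HMGCS1, PMVK, IDI1, FDFT1, SQLE, NSDHL, DHCR7, SREBF2, SCAP, MBTPS1, TMEM97 and NR1H2. Of all genes 15.8% were separated in that way and 14.2% in the other direction. The shares of all genes given here were not matched for level. Over both arms, genes within the level range of the sterol genes were called lower by edgeR more often (24.9%) than all genes (13.8%). In control cows NR1H2 alone was separated, against 0.86% and 0.491% of all genes, and over both arms no sterol gene was, against 0.153% and 0.054%. These counts of separated genes were added after the data were seen, and groups of 4 separate more easily than groups of 5.

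The supplement itself gave no call. On forage, PHY against control, 0 of 34 sterol genes had an unadjusted p under 0.05, against 1.603% of all genes, and their median was 0.12. HSD17B7 (-0.30 ± 0.24), MVD (0.34 ± 0.29) and TMEM97 (0.23 ± 0.24) had the smallest p (edgeR adjusted p = 0.9999). On grain the median was -0.23, and 2 of 34 (5.882%) had an unadjusted p under 0.05, against 2.572% of all genes: TMEM97 (-0.74 ± 0.25, unadjusted edgeR p across all genes 0.00723) and SC5D (-0.65 ± 0.29, 0.0326). MBTPS2 came next (-0.45 ± 0.22), and all 3 stood at an edgeR adjusted p of 0.9992. DESeq2 and limma voom called none of the 34 in either comparison.

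A direct test of whether the diet response differed between the arms also called no gene. For 28 of 34 sterol genes the diet value was lower in PHY cows than in control cows. The median difference was -0.35 against 0.02 for all genes, which were not matched for level. It was -0.22 without grain_PHY 1 (25 of 34 negative), -0.33 without the 3 shallowest libraries (27 of 34) and -0.36 after thinning (26 of 34). With the olfactory receptor covariate it was -0.12 (23 of 34). TMEM97 had the largest difference, -0.98 ± 0.35 (edgeR adjusted p = 0.954): its diet value was -0.24 in control cows and -1.22 in PHY cows. MVD (-0.75 ± 0.42) and SQLE (-0.78 ± 0.46) followed at the same adjusted p. TMEM97 was the 1 sterol gene with an unadjusted p under 0.05 for this difference, against 1.991% of all genes, and DESeq2 and limma voom called none.

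**Figure D4:**
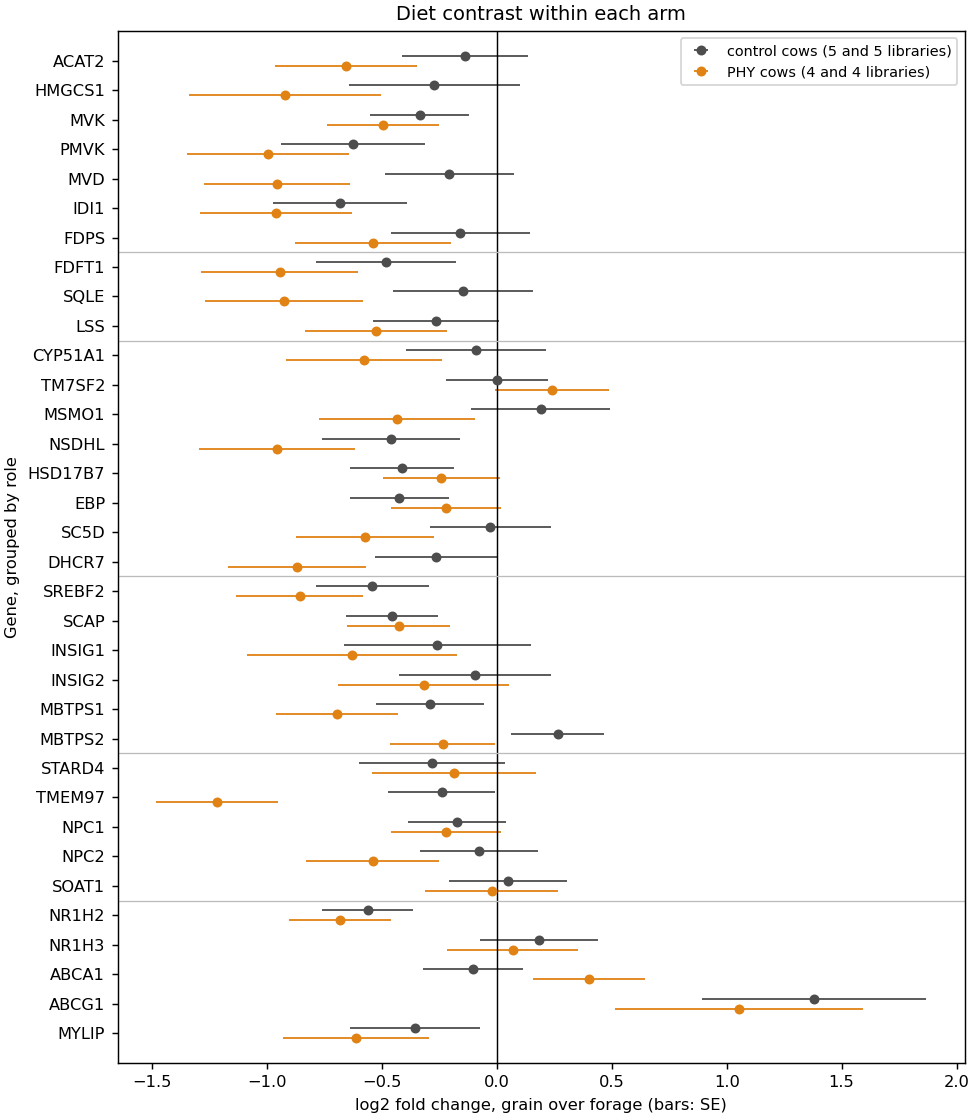
Log2 fold change of grain over forage (x axis, bars are SE) for each sterol gene in control cows (grey, 5 and 5 libraries) and in PHY cows (orange, 4 and 4 libraries), from edgeR. Orange lies left of grey for 28 of 34 genes, with the widest gap at TMEM97 (-0.24 and -1.22), and no value in either arm passed the adjusted threshold.

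Within a diet, many but not all of the synthesis genes varied with HMGCS1 from library to library: 11 of the 17 other enzymes passed on forage and 10 on grain. This was examined after the data were seen, across the 9 forage and the 9 grain libraries (1 per cow in each diet), as the correlation of each sterol gene with HMGCS1 on log2(CPM + 1). On forage FDPS followed HMGCS1 most closely (r = 0.985, rho = 1.0, exact permutation adjusted p = 0.000182), then CYP51A1 (r = 0.959), DHCR7 (r = 0.956) and SQLE (r = 0.947). On grain FDPS (r = 0.952, rho = 0.933, exact permutation adjusted p = 0.00159), FDFT1 (r = 0.948), CYP51A1 (r = 0.946) and SQLE (r = 0.942) led. Over the 66 relations, adjusted together by Benjamini-Hochberg, Pearson's r passed 0.05 in an exact permutation test for 14 of 33 genes on forage and 13 on grain, and Spearman's rho for 11 and 10. Of the enzymes, MVK, PMVK, TM7SF2, HSD17B7 and EBP passed in neither diet, with r from 0.20 to 0.71 on forage and from -0.13 to 0.66 on grain. Without the 2 libraries farthest from the median of HMGCS1, r with FDPS was 0.973 on forage and 0.828 on grain, with CYP51A1 0.904 and 0.901, and with SQLE 0.863 and 0.911. Some relations that had passed became much weaker there: SC5D on forage (0.309), and LSS (0.376), STARD4 (0.282) and NPC1 (0.550) on grain. The other relations that had passed stood between 0.628 and 0.974 on forage and between 0.741 and 0.915 on grain.

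An r above 0.8 was found for 36.4% of the sterol genes on forage and 27.3% on grain, against 3.46% and 2.56% of all tested genes. These shares are across genes, which are not independent, and were not matched for level. On forage 768 genes had such an r, 12 of them sterol genes, and on grain 568, 9 of them sterol genes. Of the 10 genes with the highest r, 2 on forage and 1 on grain were sterol genes. The median r was 0.69 and 0.63 for the sterol genes and -0.07 and -0.14 for all genes. By role, the 3 squalene genes had the highest median r with HMGCS1 (0.93 on forage and 0.94 on grain), although LSS stood at 0.783 on grain. The medians were 0.72 and 0.83 for the mevalonate genes, 0.78 and 0.66 for the ring genes, 0.63 and 0.66 for transport and storage and 0.61 and 0.54 for SREBP2 control. The LXR branch stood apart, with a median r of 0.09 and -0.26 and no member past the threshold in either diet; ABCG1 had the lowest values (-0.53 and -0.73). SREBF2 passed on grain (r = 0.828, exact permutation adjusted p = 0.015) and not on forage (r = 0.649, exact permutation adjusted p = 0.12), and the difference between the diets was not tested. The r of HMGCS1 with log2 total reads was 0.28 on forage and 0.72 on grain (rho 0.0833 and 0.717, exact permutation p = 0.468 and 0.0277 for r). With the log2 olfactory receptor level r was -0.61 and -0.60 (rho -0.333 and -0.70, exact permutation p = 0.0837 and 0.0848 for r), and none of these 4 values passed after adjustment over the 4 (smallest exact permutation adjusted p = 0.111). Without the 2 libraries farthest from the median of HMGCS1, r with total reads on grain was 0.52. On grain without the 3 shallowest libraries (n = 6), r was 0.864 for FDPS, 0.949 for FDFT1, 0.902 for CYP51A1, 0.943 for SQLE and 0.872 for SREBF2. The r of ABCG1 was -0.17 there. Without the 2 libraries farthest from the median of HMGCS1, r of ABCG1 was -0.21 on forage and -0.40 on grain. Each arm held too few libraries for a correlation of its own.

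**Figure D5:**
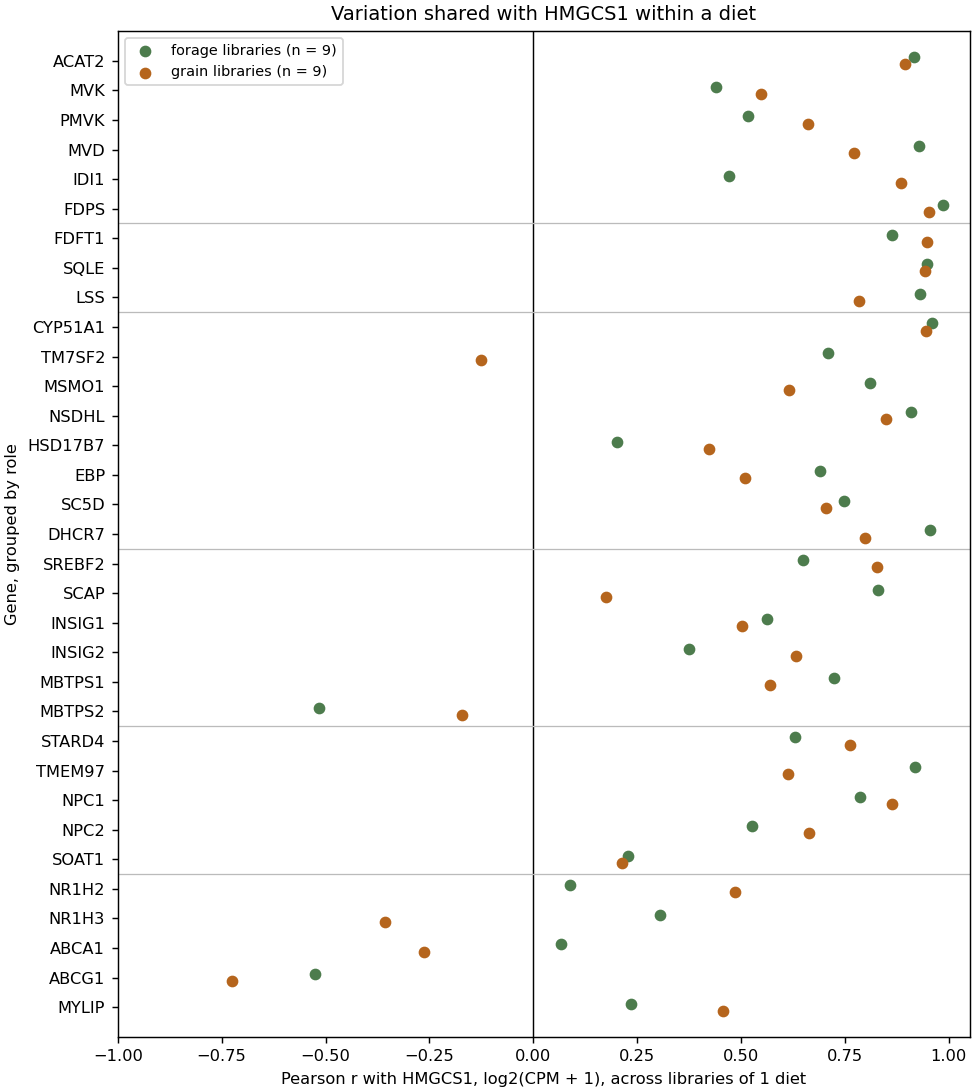
Pearson r of each sterol gene with HMGCS1 (x axis) on log2(CPM + 1), across the 9 forage libraries (green) and the 9 grain libraries (brown), genes ordered by role. Squalene genes lie between 0.783 and 0.948 in both diets, whereas the 5 LXR genes range from -0.726 to 0.484.

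HMGCS1 varied the most of the synthesis enzymes within a group. Its biological coefficient of variation, the spread between libraries of a group beyond counting noise as edgeR estimates it, was 40.4%. The other enzymes ran from 24.6% (MVK) to 34.5% (PMVK). Among the other sterol genes INSIG1 (44.9%) and ABCG1 (52.4%) varied more, and NR1H2 (22.6%), SCAP (22.9%) and MBTPS2 (23.5%) varied least. The median was 30.21% for the sterol genes and 44.48% for all tested genes, which were not matched for level.

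Other genes of sterol and isoprenoid handling were read from a list of 43, of which 40 were in the table and 39 were tested. On grain over both arms 10 fell and 5 rose (median -0.31), against 13.8% and 18.1% of all genes. None of the 15 was called without grain_PHY 1 (median -0.20), without the 3 shallowest libraries (-0.17) or with the olfactory receptor covariate (-0.01). Of the 10 that fell, the 5 of smallest p were COQ2 of coenzyme Q synthesis (-0.64 ± 0.17), OSBP, which exchanges sterol between membranes (-0.79 ± 0.21), RXRA, the partner receptor of LXR (-0.69 ± 0.19), the lipoprotein receptor VLDLR (-0.58 ± 0.16) and FNTA, a subunit of the enzymes that attach farnesyl groups (-0.59 ± 0.18). RXRA went from 104 ± 22.02 CPM on forage to 64.7 ± 17.6 on grain (SD, n = 9 each) and OSBP from 74.5 ± 8.64 to 43.9 ± 17.4. The genes that rose were the sterol transfer protein GRAMD1B (1.17 ± 0.27), the transporters ABCG5 (2.05 ± 0.59), ABCA7 (0.75 ± 0.24) and ABCG8 (1.56 ± 0.55), and SOAT2, a sterol-esterifying enzyme of gut and liver (1.49 ± 0.53). ABCG5 and ABCG8 form one sterol pump, and on forage they stood at 0.551 ± 0.494 and 0.982 ± 1.004 CPM, on grain at 2.06 ± 0.857 and 2.64 ± 1.65 CPM. In each other contrast no gene of this list was called by edgeR.

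Some cell type markers were called for grain against forage over both arms, where 13.8% of all genes were called lower and 18.1% higher. The lists held 3 to 13 tested genes each, and these shares were not matched for level. Of the epithelial markers 3 of 13 fell and 2 rose, with a median log2 fold change of -0.46. Of 12 myeloid markers 4 rose, and their sum was 46.3 to 71.8 CPM on forage and 57.1 to 85.2 CPM on grain, with MARCO at 0 in 1 forage library. Of 9 lymphoid markers 3 rose, with sums of 19.5 to 29.9 and 21.4 to 50.3 CPM, and CD79A and CD79B each at 0 in 2 forage_control libraries. None of 6 fibroblast, 5 endothelial or 5 smooth muscle markers was called, and 1 of 3 tested red cell markers rose, at sums of at most 12.45 CPM and with HBA, HBB and HBM at 0 in some libraries. None of these markers was called without grain_PHY 1, without the 3 shallowest libraries or with the olfactory receptor covariate. The part of these cells in the sterol gene values was not tested.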

How the data were processed

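Gene counts of 18 rumen papillae libraries were used as deposited: whole-number counts per Ensembl gene with the gene's symbol. Libraries were made from 10 ng of total RNA with a stranded total RNA kit, per the labels' protocols. The submitters' processing notes name bcl2fastq 2.20 for demultiplexing and the cattle build bosTau9. Aligner, counter and strand use were not given in the sources used here, so overlapping or near-identical genes could share reads. A second deposited table, scaled by DESeq2, was not used here.

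Counts were tested with edgeR 4.0.16 (R 4.3.3): filterByExpr by group (minimum count 10), TMM scaling, 1 mean per group over 18 libraries, a robust quasi-likelihood F test and 6 contrasts (grain against forage over both arms and in each arm, PHY against control on each diet, and the difference of the diet responses). Adjusted p-values are Benjamini-Hochberg over the 22202 genes tested in a contrast, and a gene was called under 0.05. CPM used TMM-scaled library sizes, except for olfactory receptor genes (total reads). On simulated data with 200 changed genes among 22202, the test recovered 200 and made 9 false calls. This was done for the contrast of grain and forage over both arms. Performance at the effect sizes and the spread between libraries of the sterol genes was not tested. Depth was 3953060 to 34471682 reads per library, and each sterol gene had at least 13 reads in each library. The p-values of these fits set a difference between groups against the spread between libraries, with libraries of the same cow taken as independent. No library was excluded, and common variation was 51.4% (edgeR's biological coefficient of variation).

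The members and lists were chosen with earlier results of these data known. Values per library are printed for the 2 sterol genes of smallest p in each of 6 roles (grain against forage, both arms) and for HMGCS1, SQLE, SREBF2, INSIG1, ABCA1 and NR1H3; in contrasts without a call the 3 smallest p are named, and of the further list at most 5 called genes in each direction. Some genes of the pathway and of the marker lists are not reported here. Alternatives were DESeq2 size factors, no or a stricter filter (1 CPM in 4 libraries and a mean of 10 reads), DESeq2 1.42.0, limma 3.58.1 voom with quality weights, only the groups compared, the log2 CPM of 144 olfactory receptor genes as a covariate, leaving out the 3 shallowest libraries, thinning to 3953060 reads, and leaving out each library. Correlations used scipy 1.17.1, with exact permutation of 9 libraries.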

Additional observations from a re-analysis of the deposited data

Results flagged for a closer look

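Within the groups of 4 or 5 libraries, 10 of the 136 combinations of a sterol gene and a group held a library far from the others by Dixon's test, where chance alone gives about 5%. Of these, 3 came from grain_PHY 1, 2 each from grain_control 1 and grain_PHY 4, and 1 each from forage_control 1, forage_control 4 and forage_PHY 1. In grain_PHY 1, PMVK was low at 12.35 CPM (the others 36.2 to 40.1), MBTPS2 was high at 9.532 CPM (the others 6.85 to 7.08) and ABCG1 was high at 8.448 CPM (the others 2.69 to 3.64). In grain_control 1, INSIG2 was low at 1.813 CPM (the others 3.37 to 3.93) and ABCG1 was high at 11.73 CPM (the others 2.10 to 3.74). Grain_PHY 4 was low in SC5D at 7.961 CPM (the others 12.02 to 12.56) and high in ABCA1 at 37.45 CPM (the others 23.72 to 25.98).

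On forage, INSIG1 was high in forage_control 1 at 16.83 CPM (the others 3.88 to 6.79), ABCA1 was high in forage_control 4 at 37.37 CPM (the others 18.8 to 22.6), and SCAP was high in forage_PHY 1 at 39.6 CPM (the others 33.5 to 34.4). Grain_PHY 1 and grain_control 1 were also the 2 libraries with the fewest reads.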

How the results depend on the processing

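For grain against forage over both arms, DESeq2 size factors and DESeq2 itself called 9 sterol genes lower and 1 higher, and either other filter 11 and 1. Limma voom called 18 lower and 1 higher. Of all genes, voom called 4373 lower and 5754 higher of 22202. DESeq2 called 2953 and 6579 of 26981, and DESeq2 size factors in edgeR gave 2319 and 4302 of 22202. The olfactory receptor covariate, leaving out the 3 shallowest libraries and thinning each left 0 sterol genes lower and 0 higher. Of all genes, thinning left 21 lower and 60 higher of 16455. The covariate and the leave-out of the 3 shallowest libraries left 0 of all genes. Leaving out 1 library gave 0 to 14 sterol genes lower and 0 to 1 higher. Of all genes, 1 (without grain_PHY 1) to 9587 (without grain_control 5) were called in these fits. The sterol genes called lower numbered 5 without forage_control 1, 7 without forage_control 5 and 4 without forage_PHY 1. They numbered 7 without grain_control 1, 0 without grain_PHY 1 and 7 without grain_PHY 2. ABCG1 was lost without forage_PHY 1, forage_PHY 2, grain_control 1 or grain_PHY 1. In PHY cows DESeq2 called 7 lower, voom 13 lower and 1 higher, the PHY libraries alone 10 lower and 1 higher, and leaving out 1 library 0 to 3 lower, with 1 without forage_control 5 and 3 without grain_control 1. In control cows, between PHY and control on either diet, and for the difference of responses, each alternative called 0. The causes were not tested.

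With the covariate the sign turned for 14 genes, among them PMVK and MBTPS1 of the 12 called with all libraries, and none was called in that fit: ACAT2 0.0626, PMVK 0.0113, FDPS 0.10, CYP51A1 0.16, MSMO1 0.21, EBP 0.0032, SC5D 0.0571, INSIG2 0.21, MBTPS1 0.0482, MBTPS2 -0.14, STARD4 0.48, NPC1 0.18, NPC2 0.35 and MYLIP 0.0700 on the log2 scale. Thinning turned MSMO1 (0.15), SC5D (0.10) and STARD4 (0.20), no filter turned MBTPS2 (-0.0092) and SOAT1 (-0.0090), and leaving out the 3 shallowest libraries turned MBTPS2 (-0.0349) and STARD4 (0.0710). Over single left-out libraries MBTPS2 ran from -0.0474 to 0.0677 and SOAT1 from -0.0924 to 0.154. Of the 13 grain correlations with HMGCS1 that passed, chosen for a check without the 3 shallowest libraries after the data were seen, each kept its sign, and MVD alone passed at n = 6 (r = 0.930, exact permutation adjusted p = 0.0458). No paired analysis was possible because no label says which cow a library came from.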
